A study of Mus musculus with 34 samples.

Results

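Within the control arm of a hairpin experiment, 10 libraries carried the same labels, and their library numbers fell into 2 stretches with a gap between them. The 4 libraries with numbers 201013 to 201016 (replicates 1 to 4, called the low-number libraries here) were compared with the 6 libraries with numbers 201026 to 201031 (replicates 5 to 10, the high-number libraries). These are 10 of the 34 libraries of the series. All 10 came from mouse colon tumour organoids, epithelial cultures grown in 3 dimensions, with the genotype AKP and the treatment given as Control. The labels do not spell out the genotype AKP. The control hairpin was not directed at a gene of interest, so no gene was targeted between the 2 stretches. The other 24 libraries, used only to set levels side by side, comprised 3 of the same genotype labelled shYAP, 3 of a Scrambled control for gene editing and 9 from each of 2 Degs1 knockout clones. The labels give no batch, date, passage or medium for either stretch, and do not say whether replicates were separate cultures, so p-values reflect only how far single libraries scattered, and that scatter may be technical.

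Organoid lines are kept by repeated passage, and the mixture of dividing, secretory and absorptive cells in them is known to move with the time since splitting, the medium and the density. Tumour organoids can also express genes of stratified epithelia and of the hair follicle, whose keratins form the filaments of hair and nail. Heat shock proteins and the transcription factors Atf4 and Ddit3 are standard readouts of protein folding stress and of amino acid shortage. In bulk RNA, fewer cells of a type and less RNA per cell cannot be told apart.

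Totals ran from 1747533 counts in replicate 3, the shallowest, to 5914945 in the low-number libraries and from 2470845 to 5411092 in the high-number ones. No 2 libraries were alike within counting noise. After each gene's mean was removed, 2 low-number libraries correlated across genes with a median r of 0.15, and a low-number with a high-number library with a median r of -0.29, where genes are not independent replicates. The high-number libraries held 2 runs that resembled themselves, replicates 5 to 7 and 8 to 10, with a median r of 0.35 within a run and -0.11 between runs. Removing the gene means over the same 10 libraries by itself makes r negative between unrelated libraries. A negative r here is therefore not by itself a measure of opposed profiles, and only the order of these values is read. None of 21 tested adhesion and intestinal identity genes passed, where 8.93% of all genes did. No call in a list of this size is near that share, so it does not show that epithelial identity was unchanged. The summed level of the list was 3759 to 4110 CPM (CPM being read counts scaled to a common library total) and 3572 to 3960 CPM. Markers of other cell types took at most 0.00456% of counts in any of the 10 libraries. Summed fibroblast markers reached at most 0.94 CPM, 9 of 16 immune markers had no count, and the 1 immune gene tested, Cd68, ran from 19.2 to 31.9 CPM and from 14.4 to 40.6 CPM.

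Of 10755 genes that passed a filter on low counts, 960 (8.93%) differed at an adjusted p under 0.05 in the quasi-likelihood test of edgeR. In the high-number libraries 408 genes were higher (3.79%) and 552 lower (5.13%), and 320 of the 960 differed by at least 1 on the log2 scale, 187 higher and 133 lower. In 420 genes (3.91%) all 6 high-number libraries lay above all 4 low-number ones, and in 602 genes (5.6%) all lay below. Without replicate 2 the test called 563 genes (5.14%), and without replicate 4 it called 615 (5.62%). All fold changes below are log2 values, high-number minus low-number, with their standard error. The rises included genes of the hair shaft and its cortex, and the falls included heat shock genes, small ribosomal and mitochondrial transcripts and near-identical gene copies.

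Hair-type genes were higher as a group. All 10 tested hair-type keratins rose (100% against 3.79% of all genes), with a median of 3.02 against 0.03 over all genes, and in 9 of them the libraries did not overlap. A gene can pass the filter on low counts through the high-number libraries alone, as Krt81 did, so the tested members lean towards rises. With no filter 11 of 12 hair-type keratins rose, where 2.75% of all genes did. Their summed level was 19.8 to 42.3 CPM in the low-number libraries and 138 to 264 CPM in the high-number ones. Krt81 (ENSMUSG00000067615, chromosome 15, 101459061 to 101463751, mm10), a type II keratin of the hair cortex, was at 0.94, 0.61, 0.60 and 0 CPM in replicates 1 to 4, and at 7.29, 13.3 and 19.7 CPM as lowest, median and highest of the high-number libraries. It rose by 4.62 ± 0.50 (adjusted p = 5.69e-06).

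The type I hair keratins sit together on chromosome 11. Krt33b (100023634 to 100029868) was at 3.76, 1.62, 0.60 and 0.99 CPM in replicates 1 to 4, and at 11.6, 20.07 and 35.1 CPM as lowest, median and highest of the others, a rise of 3.47 ± 0.45 (adjusted p = 1.06e-04). Krt32 (100080848 to 100088226) was at 4.70, 2.03, 1.80 and 1.15 CPM against 14.2, 18.8 and 20.9 CPM, a rise of 2.85 ± 0.33 (adjusted p = 1.07e-05). Krt36 (100102007 to 100105626) was at 3.38, 4.87, 3.59 and 2.31 CPM against 13.8, 17.04 and 19.7 CPM, a rise of 2.28 ± 0.26 (adjusted p = 1.06e-05). In these 3 genes every high-number library lay above every low-number one. Krt34 rose by 2.83 ± 0.37 (adjusted p = 1.36e-04) and Krt33a by 3.30 ± 0.66 (adjusted p = 0.0136), and the rise of Krt33a missed the threshold without replicate 2 (3.08, adjusted p = 0.0522), with replicates 5 to 7 alone (adjusted p = 0.0504) and with 8 to 10 alone (adjusted p = 0.0698). Hair keratins share sequence, with a median of 36.9% of the 31-base stretches of a tested member also found in another gene, so reads could be split among them. The 3 members that shared under 20% of theirs, Krt32, Krt36 and Krt84, all passed when the genes above 20% were left out of the fit. In that fit 3% of all genes rose.

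Partner proteins of the hair shaft were higher too. The 58 keratin-associated proteins, which cross-link keratin filaments in hair, were listed by symbol after the values had been seen. Of these, 31 had a count, 6 were tested and 4 of those 6 rose, where 3.79% of all genes did. The filter could here too be met by the high-number libraries alone. With no filter 7 of 31 rose, where 2.75% of all genes did. Among those that share under 20% of their sequence 2 of 4 rose, where 3% of all such genes did. Krtap3-1 (chromosome 11, 99566027 to 99566630) was at 17.7, 8.73, 2.40 and 6.43 CPM in replicates 1 to 4, and at 48.4, 103 and 280.1 CPM as lowest, median and highest of the others. Its rise of 3.72 ± 0.74 (adjusted p = 0.0171) fell short without replicate 2 (3.67, adjusted p = 0.0619) or replicate 4 (3.55, adjusted p = 0.0598). Krtap3-3 rose by 3.39 ± 0.72 (adjusted p = 0.0232), and without replicates 2, 3 or 4 its adjusted p was 0.0763, 0.0508 or 0.077. Gprc5d, an orphan receptor of hair follicle keratinocytes on chromosome 6, was at 3.01, 0, 0.60 and 0.33 CPM against 12.2, 28.7 and 49.2 CPM, a rise of 4.76 ± 0.86 (adjusted p = 0.00838), the largest among the named genes with a count in both stretches. Foxn1, the transcription factor whose loss leaves the nude mouse hairless, was chosen after its values were seen. It was at 1.503, 0, 0 and 2.15 CPM against 2.75, 4.53 and 6.29 CPM (2.08 ± 0.61, adjusted p = 0.0356), and missed the threshold when any of replicates 1, 2, 3, 5, 6 or 9 was left out (adjusted p from 0.0519 to 0.0878) and with replicates 8 to 10 alone (adjusted p = 0.108).

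The hair genes were not even across the high-number libraries. Summed hair keratins were at 241.0 to 264 CPM in replicates 5 to 7 and at 138 to 147 CPM in replicates 8 to 10. Gprc5d was at 42.3 to 49.2 CPM in the first of these runs and at 12.2 to 15.2 CPM in the second. Prr9, a proline-rich protein of the epidermal gene cluster on chromosome 3, was at 327 to 392 CPM in replicates 5 to 7 and at 77.8 to 94.6 CPM in 8 to 10, against 24.8 to 48.9 CPM in the low-number libraries. Its difference of 2.65 ± 0.63 (adjusted p = 0.0365) lost the call without any 1 of replicates 1 to 7 (adjusted p from 0.0565 to 0.111) and when no count filter was used (adjusted p = 0.0559). Set against the low-number libraries, replicates 5 to 7 alone gave a Prr9 difference of 3.35 (adjusted p = 4.65e-10) and replicates 8 to 10 alone 1.33 (adjusted p = 7.49e-05). Psors1c2, an epidermal secreted protein, was at 17.9 to 29.7 CPM, 2.43 to 5.28 CPM and 0.60 to 1.503 CPM in these 3 runs (3.39 ± 0.85, adjusted p = 0.0315), and missed the threshold without any 1 of replicates 1 to 5 (adjusted p from 0.0527 to 0.104) and with replicates 8 to 10 alone (adjusted p = 0.0732). In the other lines, summed hair keratins were at 38.1 to 50.3 CPM in Scrambled, 203 to 250.3 CPM in the libraries labelled shYAP, 189 to 321 CPM in clone 1 and 340 to 659 CPM in clone 2. The low-number control libraries therefore lay in or below the range of Scrambled.

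**Figure D1:**
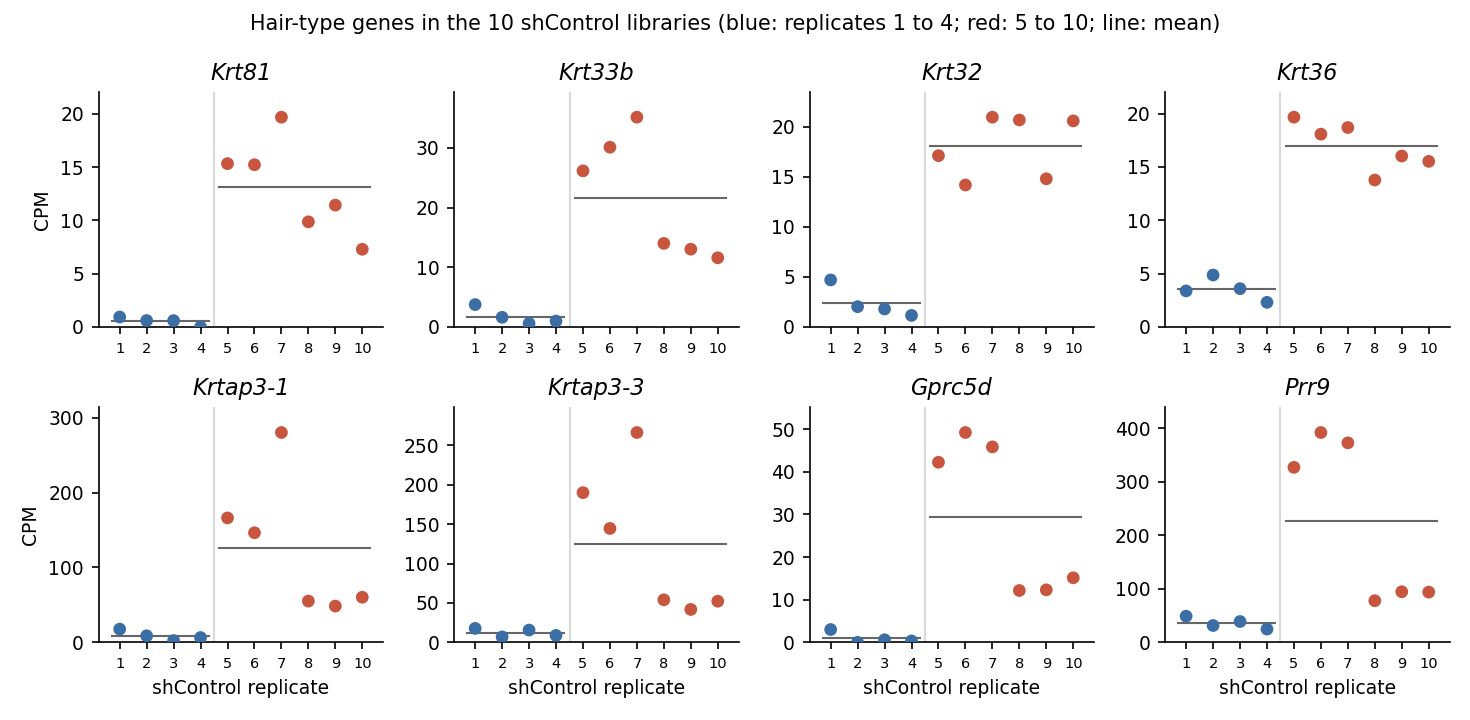
CPM of 8 hair-type genes in each of the 10 shControl libraries, by replicate number. Blue points are replicates 1 to 4, red points replicates 5 to 10, and lines are group means. In all 8 panels every red point is above every blue one, and in Krtap3-1, Krtap3-3, Gprc5d and Prr9 replicates 5 to 7 lie above replicates 8 to 10.

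Genes of the cornified envelope, the cross-linked protein shell of outer epidermal cells, moved in both directions, with 4 of 13 tested members higher and 2 lower, beside 3.79% and 5.13% of all genes. Among these falls was Sprr2a1, which shares 96.9% of its stretches with other genes and turned to a rise when summed with its copy Sprr2a2 (0.54, adjusted p = 0.00913). Among the 10 members that share under 20%, 3 rose and 1 fell, where 3% and 4.51% of all such genes did. The small proline-rich protein Sprr1a was at 29.3, 48.5, 44.9 and 48.3 CPM in replicates 1 to 4 and at 65.0, 83.4 and 128 CPM as lowest, median and highest of the others (1.06 ± 0.19, adjusted p = 0.00139). Sprr2h rose by 2.34 ± 0.40 (adjusted p = 9.07e-04). The calcium-binding S100 family had 4 of 11 tested members higher and 1 lower, beside the same shares of all genes. The falls numbered 3 without replicate 7 (5.15% of all genes) and 4 with replicates 8 to 10 alone (8.57%). S100a8, a subunit of calprotectin, was at 2.26, 1.62, 7.79 and 6.60 CPM against 10.9, 17.5 and 23.4 CPM (2.02 ± 0.39, adjusted p = 0.00276). S100a16 rose by 0.85 ± 0.18 (adjusted p = 0.005), from 130 to 181 CPM up to 204 to 386 CPM. S100a10 fell by 0.47 ± 0.10 (adjusted p = 0.0059).

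**Figure D2:**
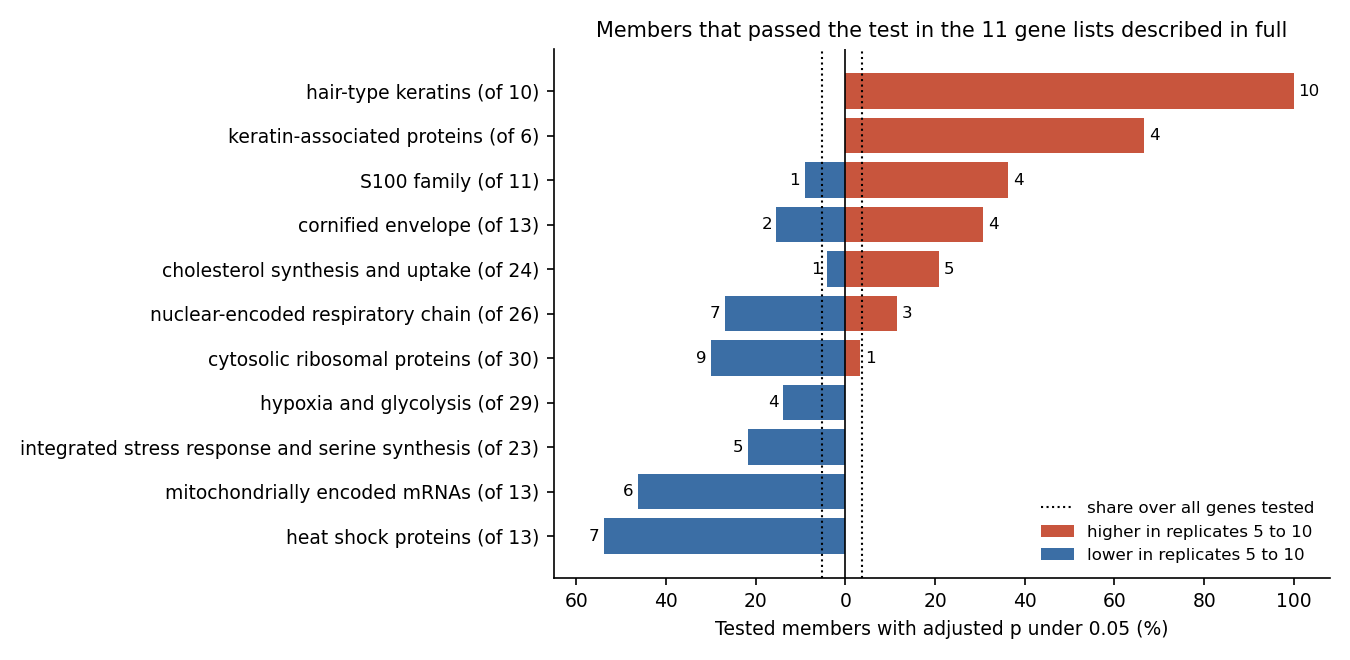
Share of tested members past an adjusted p of 0.05 in the 11 gene lists described in full, in percent. Red bars to the right are members higher in the high-number libraries, blue bars to the left are members lower there, figures give the number of members, and dotted lines mark 3.79% and 5.13% of all genes. All 10 hair-type keratins were higher and 7 of 13 heat shock proteins lower.

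Heat shock genes were lower in the high-number libraries. Of 13 tested heat shock proteins 7 fell and none rose (5.13% of all genes fell), with a median of -0.68. Hspb1 (chromosome 5, 135887919 to 135889563), a small heat shock protein that holds unfolded proteins in solution, was at 19.7, 46.9, 44.9 and 66.2 CPM in replicates 1 to 4, and at 9.72, 11.9 and 13.96 CPM as lowest, median and highest of the others. It fell by 1.90 ± 0.25 (adjusted p = 4.92e-05). Dnajb1, a co-chaperone of Hsp70, was at 31.2, 49.3, 68.3 and 56.1 CPM against 19.8, 24.4 and 28.7 CPM, a fall of 1.05 ± 0.20 (adjusted p = 0.00192). Hspa8, the constitutive Hsp70, was at 2201, 3634, 3326 and 3647 CPM against 1976, 2121 and 2186 CPM, a fall of 0.60 ± 0.12 (adjusted p = 0.00288). In each of these genes replicate 1 was the lowest of the low-number libraries.

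Hsph1 (chromosome 5, 149614287 to 149636376), the nucleotide exchange factor of Hsp70, was at 15.8, 90.3, 83.9 and 99.97 CPM against 14.4, 17.2 and 25.4 CPM. Its fall of 1.96 ± 0.40 (adjusted p = 0.0111) rested on replicates 2 to 4, since replicate 1 lay among the high-number libraries. Against replicates 5 to 7 alone the adjusted p of Hsph1 was 0.214, and against 8 to 10 alone 0.107. Without replicate 1, 9 of 15 tested heat shock proteins fell (4.48% of all genes), and without replicate 2 or 3, 5 of 14 did (3.25% and 4.34%). Among the members that share under 20% of their sequence 4 of 7 fell, where 4.51% of all such genes did. The inducible Hsp70 genes Hspa1a and Hspa1b, near-identical neighbours on chromosome 17, summed to 33.1 ± 23 CPM (SD, n = 4) in the low-number libraries and 2.43 ± 1.70 CPM (n = 6) in the high-number ones, a fall of 3.78 ± 0.77 (adjusted p = 0.0168). Their sum ran from 2.82 to 58.7 CPM and from 0.53 to 4.99 CPM, so the groups overlapped.

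The promoter of Hsph1 is printed since it holds the letters that heat shock factors are known to bind, in capitals (RefSeq, GRCm38.p6, chr5:149636287-149636586, minus strand). The motif searched was GAA, any 2 bases, TTC, any 2 bases and GAA again, on both strands, in windows from 250 bases before to 50 after each start.
Hsph1 promoter: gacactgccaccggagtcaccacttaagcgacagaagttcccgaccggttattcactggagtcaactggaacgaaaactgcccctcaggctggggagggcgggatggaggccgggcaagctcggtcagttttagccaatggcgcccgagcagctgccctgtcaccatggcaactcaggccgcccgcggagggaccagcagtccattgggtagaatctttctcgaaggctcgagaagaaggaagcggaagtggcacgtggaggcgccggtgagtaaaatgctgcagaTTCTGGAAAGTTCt
The motif was in 198 of 32851 promoters (0.603%), where a gene can have several. Counted per gene, it was in 44 of 8333 tested genes with a promoter in the table (0.528%). It was in 3 of the 11 heat shock proteins with a promoter there, Hsph1, Hspd1 and Hspe1. The promoters of Hspb1 and Dnajb1 held no match, and in the Hsph1 window printed the match lies after the start. Hspd1 and Hspe1, the mitochondrial chaperonins, did not pass the test (-0.33 ± 0.25 and -0.45 ± 0.25). A match describes these letters only and does not show binding.

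Genes of the integrated stress response, which Atf4 drives when protein synthesis is curbed, were lower in part. Of 23 tested members 5 fell and none rose, with a median of -0.25, where 5.13% of all genes fell. With replicates 8 to 10 alone 7 fell and 2 rose (8.57% and 7.88% of all genes). Cebpg, a dimer partner of Atf4, was at 33.5, 49.9, 47.3 and 45.2 CPM in replicates 1 to 4 against 19.9, 21.01 and 26.6 CPM (-1.01 ± 0.17, adjusted p = 6.13e-04). Ddit3, the pro-apoptotic factor CHOP, was at 75.9, 144, 178 and 131 CPM against 49.8, 62.7 and 88.5 CPM (-1.01 ± 0.20, adjusted p = 0.00426), with replicate 1 again inside the range of the high-number libraries, and Ddit3 missed the threshold with replicates 5 to 7 alone (-0.82, adjusted p = 0.0624). Atf4 fell by 0.64 ± 0.14 (adjusted p = 0.00537) and Nupr1 by 0.62 ± 0.13 (adjusted p = 0.00428). The serine synthesis enzymes Phgdh, Psat1 and Psph did not pass (-0.12 ± 0.17, 0.31 ± 0.17 and -0.24 ± 0.21). In the endoplasmic reticulum 3 of 20 folding genes fell and none rose, beside 5.13% and 3.79% of all genes. The disulphide isomerase Pdia4 was at 282, 360.2, 334 and 337 CPM against 139, 163 and 174 CPM (-1.03 ± 0.12, adjusted p = 9.02e-06), and the chaperone Hsp90b1 fell by 0.93 ± 0.14 (adjusted p = 1.83e-04). In both the libraries of the 2 stretches did not overlap.

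**Figure D3:**
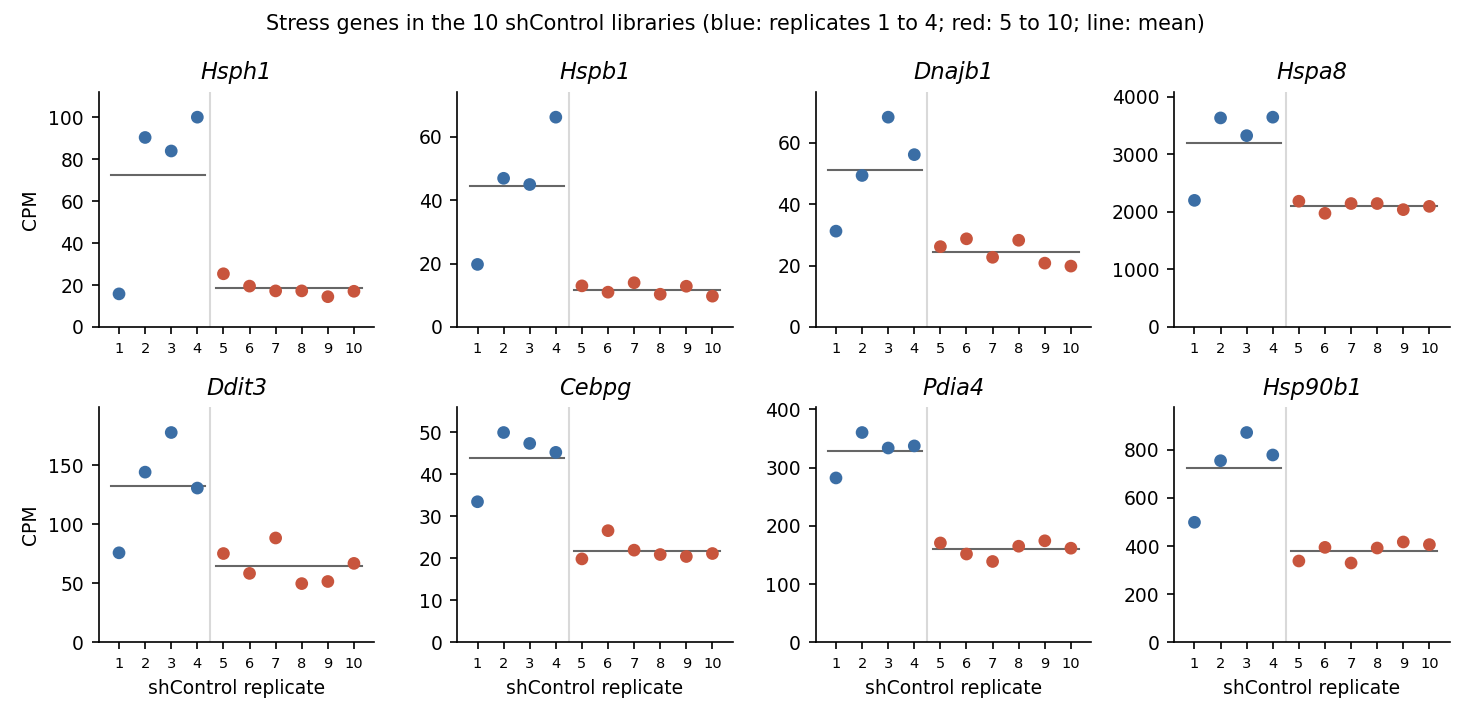
CPM of 8 folding and stress genes in each of the 10 shControl libraries, by replicate number. Blue points are replicates 1 to 4, red points replicates 5 to 10, and lines are group means. Replicate 1 is the lowest blue point in each panel and lies among the red points in Hsph1 and Ddit3, while in Pdia4 and Hsp90b1 no points overlap.

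Proliferation genes differed between the runs of high-number libraries. Genes of DNA replication summed to 929.6 to 1275 CPM in replicates 1 to 4, 941.8 to 1140 CPM in 5 to 7 and 1862 to 1901 CPM in 8 to 10. Genes of G2 and mitosis summed to 2477 to 2807 CPM, 1919 to 2068 CPM and 2574 to 2730 CPM in the same order. Neither sum was tested. Of 24 genes of G2 and mitosis 2 fell (5.13% of all genes did), Cenpf (-0.86 ± 0.14, adjusted p = 6.52e-04) and Hmmr (-0.65 ± 0.13, adjusted p = 0.00381), and of 25 genes of DNA replication 3 rose (3.79% of all genes did). The helicase subunit Mcm7 was at 83.2, 59.5, 54.5 and 55.3 CPM in replicates 1 to 4, at 83.7 to 120.1 CPM in 5 to 7 and at 143 to 158 CPM in 8 to 10 (0.96 ± 0.20, adjusted p = 0.00465). Mcm6 was at 11.7 to 14.8 CPM, 16.1 to 27.3 CPM and 38.4 to 45.3 CPM in the same runs (1.25 ± 0.28, adjusted p = 0.00842), and missed the threshold with 5 to 7 alone (0.62, adjusted p = 0.149). Mki67, the standard marker of cycling cells, did not pass (-0.53 ± 0.20, adjusted p = 0.101), but did without replicate 9 (-0.64, adjusted p = 0.0466) and with replicates 5 to 7 alone (-0.76, adjusted p = 0.0329). It also passed with no count filter, with all 34 libraries in 1 fit and with 3 runs as groups (adjusted p = 0.0333, 0.0399 and 0.0313). Myc, the growth-promoting transcription factor, was at 50.7, 73.5, 54.5 and 76.6 CPM against 14.7, 23.1 and 31.5 CPM, a fall of 1.48 ± 0.18 (adjusted p = 2.79e-05) with no overlap. The cyclin Ccnd2 rose by 0.74 ± 0.12 (adjusted p = 4.61e-04), from 172 to 220 CPM up to 278 to 335 CPM.

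Trp53 (chromosome 11, 69580359 to 69591873), the tumour suppressor that the letter P of AKP commonly stands for, was at 1.503, 3.25, 5.39 and 2.47 CPM in replicates 1 to 4 and at 5.48, 13.1 and 21.9 CPM as lowest, median and highest of the others. Replicates 5 to 7 ran from 5.48 to 8.45 CPM and replicates 8 to 10 from 17.7 to 21.9 CPM. The rise of 2.28 ± 0.49 (adjusted p = 0.00699) held for replicates 8 to 10 alone (2.88, adjusted p = 4.60e-06) and not for 5 to 7 alone (1.18, adjusted p = 0.145). In the libraries of the other lines Trp53 was at most 10.8 CPM, so replicates 8 to 10 stood above all 31 other libraries. Reads per gene do not show which exons they cover, so they do not tell whether the allele is intact. Of 16 tested genes in the p53 list 1 passed, Trp53 itself, which is near the 8.93% of all genes that passed. Edn1, the vasoactive peptide endothelin 1, had the same order, at 0.41 to 1.88 CPM, 2.36 to 7.73 CPM and 27.5 to 38.3 CPM in the 3 runs (4.11 ± 0.96, adjusted p = 0.0282), and missed the threshold without any 1 of replicates 1 to 4 (adjusted p from 0.0582 to 0.0929) and with no count filter (adjusted p = 0.0627).

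Among differentiation markers, 2 of 8 tested goblet cell genes rose and 1 fell, beside 3.79% and 5.13% of all genes. Tff3, the trefoil peptide of goblet cells, was at 4.89, 3.45, 0 and 2.31 CPM against 10.97, 17.7 and 25.6 CPM (2.61 ± 0.37, adjusted p = 1.58e-04), and Agr2, which folds mucins, fell by 0.48 ± 0.15 (adjusted p = 0.043). The mucin gene Muc2 was below the filter. Ang4, an antimicrobial ribonuclease, had no count in 4 of 4 low-number libraries and 1.74 to 4.25 CPM in the others. Its mean of 3.04 ± 1.06 CPM (SD, n = 6) is at least 18.3-fold higher than the 0.166 CPM that 3 counts over the 4 low-number libraries would give. Pyy, a gut hormone of L cells chosen after its values were seen, also had no count in replicates 1 to 4. It was at 1.15, 5.62 and 12.1 CPM in the high-number libraries, at least 33.4-fold higher by the same floor. The floor covers counting error only. Both genes came from a search for genes absent from 1 stretch, so their zeros were set by that choice. Enteroendocrine and tuft cell genes summed to 24.55 to 41.33 CPM and 26.55 to 42.46 CPM, and 1 of 3 tested rose (3.79% of all genes).

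Paneth and deep crypt genes split, with 2 of 7 tested higher and 2 lower, beside the same shares of all genes. Of the 2 lower, Nupr1 was also counted among the falls of the integrated stress response above. Reg4 rose by 1.06 ± 0.23 (adjusted p = 0.00468) and the lysozyme Lyz1 by 2.51 ± 0.47 (adjusted p = 0.00201), and summed with its paralog Lyz2 it rose by 2.53 ± 0.47 (adjusted p = 0.00199). The phospholipase Pla2g2a was at 44.7, 85.6, 71.3 and 80.5 CPM against 24.6, 28.7 and 36.8 CPM (-1.24 ± 0.18, adjusted p = 1.36e-04). Of 16 tested colonocyte genes 2 fell (5.13% of all genes did), among them the carbonic anhydrase Car2 (-0.79 ± 0.16, adjusted p = 0.00468). The stem cell genes Lgr5 (0.83 ± 0.34, adjusted p = 0.138) and Clu (-0.63 ± 0.28, adjusted p = 0.178) and the differentiation keratin Krt20 (-0.78 ± 0.39, adjusted p = 0.238) did not pass. Of 23 tested revival and fetal-like genes 3 rose and 1 fell, beside 3.79% and 5.13% of all genes. The rises were Ly6d (1.43 ± 0.33, adjusted p = 0.0183), Msln (0.75 ± 0.20, adjusted p = 0.0232) and Sprr1a, given above. The fall was Anxa1, by 0.48 ± 0.11 (adjusted p = 0.00999), and by 0.37 without replicate 2 (adjusted p = 0.061). Ly6a (0.18 ± 0.13, adjusted p = 0.437), Yap1 (0.51 ± 0.22, adjusted p = 0.159) and Degs1 (0.28 ± 0.35, adjusted p = 0.691), the genes of the study's wider questions, did not pass.

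In metabolism, sterol genes were higher in part. Of 24 cholesterol genes 5 rose and 1 fell (3.79% and 5.13% of all genes), with a median of 0.25. Of these 24 genes 10 rose without replicate 1 but 3 without replicate 2, 3 or 4. The shares of all genes that rose in these 4 fits were 3.41%, 1.89%, 3.68% and 2.16%. Mvk and Hsd17b7, enzymes of the mevalonate and sterol steps, rose by 0.85 ± 0.20 and 0.88 ± 0.21 (adjusted p = 0.0106 for each), and missed the threshold with replicates 5 to 7 alone (0.58 and 0.61, adjusted p = 0.13 and 0.0984). Srebf2, the master regulator of the pathway, fell by 0.53 ± 0.15 (adjusted p = 0.0301). Outside the list, the desaturase Fads1 rose by 1.72 ± 0.29 (adjusted p = 8.67e-04), and the transferrin receptor Tfrc was at 69.3, 65.1, 39.5 and 40.1 CPM against 128, 189 and 230.2 CPM (1.77 ± 0.21, adjusted p = 3.15e-05).

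Genes of hypoxia and glycolysis fell in 4 of 29 cases and rose in none, where 5.13% of all genes fell and 3.79% rose. The glycolytic enzyme Eno1 was at 1709, 1699, 1544 and 1474 CPM against 835, 928 and 1153 CPM (-0.74 ± 0.11, adjusted p = 1.45e-04). That count was 13 with replicates 8 to 10 alone and 2 with 5 to 7 alone, which also had 4 rises, and it ran from 2 to 7 when 1 library was left out, with 7 without replicate 5 and 2 without 1, 3, 4, 6, 9 or 10. Of all genes, 8.57% fell with replicates 8 to 10 alone, and with 5 to 7 alone 5.22% fell and 3.81% rose. Without replicate 5, 5.1% fell, and without replicates 1, 3, 4, 6, 9 or 10, in that order, 4.48%, 4.34%, 3.46%, 4.58%, 4.65% or 4.12% fell. Car9, a carbonic anhydrase induced by hypoxia, was at 97.9, 96.6, 62.3 and 70.4 CPM in replicates 1 to 4, at 87.3, 26.9 and 68.0 CPM in 5 to 7 and at 30.1, 28.0 and 29.9 CPM in 8 to 10. It did not pass (-0.86 ± 0.35, adjusted p = 0.163), but did with replicates 8 to 10 alone (-1.47, adjusted p = 5.22e-06) and without replicate 5 (-1.16, adjusted p = 0.00848). In innate immune signalling, 3 of 14 tested NF-kappaB and chemokine genes rose, where 3.79% of all genes did. Among them were Nfkbia, the feedback inhibitor of NF-kappaB (0.89 ± 0.16, adjusted p = 0.0017), and the adhesion molecule Icam1 (1.65 ± 0.34, adjusted p = 0.00422). Of 15 tested interferon and antigen presentation genes 2 rose and 1 fell, beside 3.79% and 5.13% of all genes. The rises were Ifi27 (0.98 ± 0.27, adjusted p = 0.032) and Irf9 (0.90 ± 0.24, adjusted p = 0.0221). Irf9 missed the threshold without replicate 1 or 4 and with replicates 8 to 10 alone (adjusted p = 0.0596, 0.0905 and 0.0832). The fall was B2m, the light chain of class I antigen presentation, by 0.95 ± 0.16 (adjusted p = 6.00e-04). The class I genes H2-K1 and H2-D1 did not pass (-0.108 ± 0.155 and 0.178 ± 0.124).

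Mitochondrial and ribosomal transcripts were lower in part. Of 13 mitochondrially encoded protein genes 6 fell and none rose, where 5.13% of all genes fell and 3.79% rose. Among the falls, mt-Atp8 was at 113, 117, 70.1 and 96.8 CPM against 28.2, 31.9 and 40.5 CPM (-1.60 ± 0.16, adjusted p = 1.67e-06). Another was mt-Nd4l (-1.24 ± 0.30, adjusted p = 0.022). The other 7 did not pass, among them mt-Atp6 (-0.07 ± 0.12, adjusted p = 0.782) and mt-Nd4 (0.28 ± 0.12, adjusted p = 0.159). With replicates 8 to 10 alone, 5 of these 13 fell and 4 rose, where 8.57% and 7.88% of all genes did. Among those that share under 20% of their sequence 3 of 6 fell, where 4.51% of all such genes did. The sum of the 13 did not separate the stretches, at 27910 to 32340 CPM and 25230 to 39950 CPM. Of 26 nuclear-encoded respiratory chain genes 7 fell and 3 rose (5.13% and 3.79% of all genes). Among the falls were the complex I subunits Ndufb3 (-0.91 ± 0.10, adjusted p = 9.76e-06) and Ndufa4 (-0.89 ± 0.12, adjusted p = 5.59e-05). Of 30 ribosomal protein genes 9 fell and 1 rose, again beside 5.13% and 3.79% of all genes. The count of falls was 5 without replicate 3 or 8 (4.34% and 4.17% of all genes). It was 2 of 8 among those that share under 20% of their sequence, where 4.51% of all such genes fell. Rpl35 was at 3667, 3467, 2675 and 3048 CPM against 1364, 1396 and 1558 CPM (-1.17 ± 0.10, adjusted p = 2.12e-07), and Rps6 fell by 0.84 ± 0.09 (adjusted p = 6.12e-06). Ribosomal protein genes together took 21.9 to 23.9% of counts and 21.4 to 22.5% (exact permutation test over 210 assignments, two-sided, p = 0.0286, 0.0858 after adjustment over 6 measures).

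A second set of differences lay between genes and their near-identical copies, and it was chosen after the values had been seen. Sap18 and Sap18b are an example. Sap18 encodes a subunit of a splicing and deacetylase complex on chromosome 14, and Sap18b is an intron-less gene on chromosome 8. Their coding sequences, of 519 bases each, are identical in GENCODE M21. Sap18 (57798180 to 57806638) was at 26.5, 29.8, 22.8 and 23.3 CPM in replicates 1 to 4, and at 161, 170.3 and 213 CPM as lowest, median and highest of the others, a rise of 2.79 ± 0.15 (adjusted p = 1.74e-10). Sap18b (95825346 to 95826134) ran the other way, at 381, 447, 352 and 398 CPM against 123, 162 and 213 CPM (-1.28 ± 0.14, adjusted p = 5.37e-06). With both counted as 1 gene, the sum was 420.1 ± 42.6 CPM (SD, n = 4) and 339 ± 33.5 CPM (n = 6), a difference of -0.30 ± 0.11 that did not pass (adjusted p = 0.108).

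Other copies differed too, though their parent genes did not all move the opposite way as Sap18 did. Tma7-ps, a pseudogene on chromosome 1, differs from the coding sequence of Tma7 on chromosome 9 at 2 of 195 bases, which are in capitals below within the first 150.
Tma7: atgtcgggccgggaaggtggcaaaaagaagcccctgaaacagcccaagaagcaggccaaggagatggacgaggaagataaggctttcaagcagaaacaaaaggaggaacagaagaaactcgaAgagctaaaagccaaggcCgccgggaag
Tma7-ps: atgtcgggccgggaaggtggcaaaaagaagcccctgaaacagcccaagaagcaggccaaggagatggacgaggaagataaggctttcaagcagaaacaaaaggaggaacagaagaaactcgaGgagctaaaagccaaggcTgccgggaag
It was at 6.20, 8.93, 5.39 and 11.7 CPM in replicates 1 to 4 and had no count in the 6 high-number libraries. Rps16-ps2, on chromosome 5 (129128077 to 129128517), is identical to the 441 coding bases of Rps16. It was at 515, 518, 401 and 465 CPM in replicates 1 to 4, which was 670 to 2820 counts, and had no count in replicates 5 to 10. Its mean of 475 ± 54.8 CPM is at least 4060-fold above the 0.117 CPM of 3 counts over the 6 libraries. In all, 6 pseudogenes were present in each low-number library and absent from each high-number one, the others being Rpl38-ps2, Gm7666, Gm10705 and Gm9797. The parent gene Rps16 did not differ by the test (-0.11 ± 0.09, adjusted p = 0.508), and Rps16 and its copy summed gave -0.27 ± 0.09 (adjusted p = 0.0571). The retrocopy Rps27rt, identical to Rps27 over 255 coding bases, was at 1210, 1078, 1390 and 1133 CPM against 279, 342 and 390 CPM (-1.82 ± 0.12, adjusted p = 7.45e-09). Rps27 itself did not pass (-0.08 ± 0.10, adjusted p = 0.694), and Rps27 and Rps27rt summed gave -0.42 ± 0.10 (adjusted p = 0.00886). Among the Sprr2a copies on chromosome 3, Sprr2a1 and Sprr2a2 share 96.9% and 97.8% of their stretches with other genes. Sprr2a1 fell by 2.17 ± 0.35 (adjusted p = 0.00409, and 0.0687 with replicates 8 to 10 alone), Sprr2a2 rose by 0.87 ± 0.12 (adjusted p = 1.40e-04) and their sum rose by 0.54 ± 0.12 (adjusted p = 0.00913). The third copy, Sprr2a3, shares 73.6%, did not pass (0.09 ± 0.14, adjusted p = 0.779) and is not in the sum.

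The same copies could be followed over all 34 libraries. Sap18 was at 125 to 250 CPM in the 15 libraries of shYAP, Scrambled and clone 1, at 225 and 236 CPM in clone 2 replicates 1 and 2, and at 30.3 to 53.9 CPM in clone 2 replicates 3 to 9. Sap18b was at 131 to 199, 214 to 229 and 458 to 513 CPM in the same libraries. Rps16-ps2 had no count in the 15 libraries or in clone 2 replicates 1 and 2, and was at 920.5 to 1214 CPM in clone 2 replicates 3 to 9. Gm7666 and Gm10705 also had counts in these 7 libraries and in the 4 low-number control libraries alone. Rpl38-ps2 was found in the 4 low-number libraries alone. Gm9797 and Tma7-ps did not keep to these libraries. Gm9797 had counts in 5 of the 15 libraries, among them each shYAP library at 9.4 to 26.5 CPM. In clone 2 replicates 3 to 9 it ran from 0 to 17.1 CPM. Tma7-ps had a count in 1 of the 15 libraries and ran from 0 to 7.50 CPM in clone 2 replicates 3 to 9. In level, the low-number control libraries thus stood with 7 libraries of a knockout clone for Sap18, Sap18b, Rps16-ps2, Gm7666 and Gm10705, and apart from their own 6 co-labelled libraries. For hair genes they did not: Krtap3-1 was at 2.40 to 17.7 CPM in them and at 164 to 431 CPM in clone 2 replicates 3 to 9. What these 11 libraries had in common in handling or counting was not tested.

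**Figure D4:**
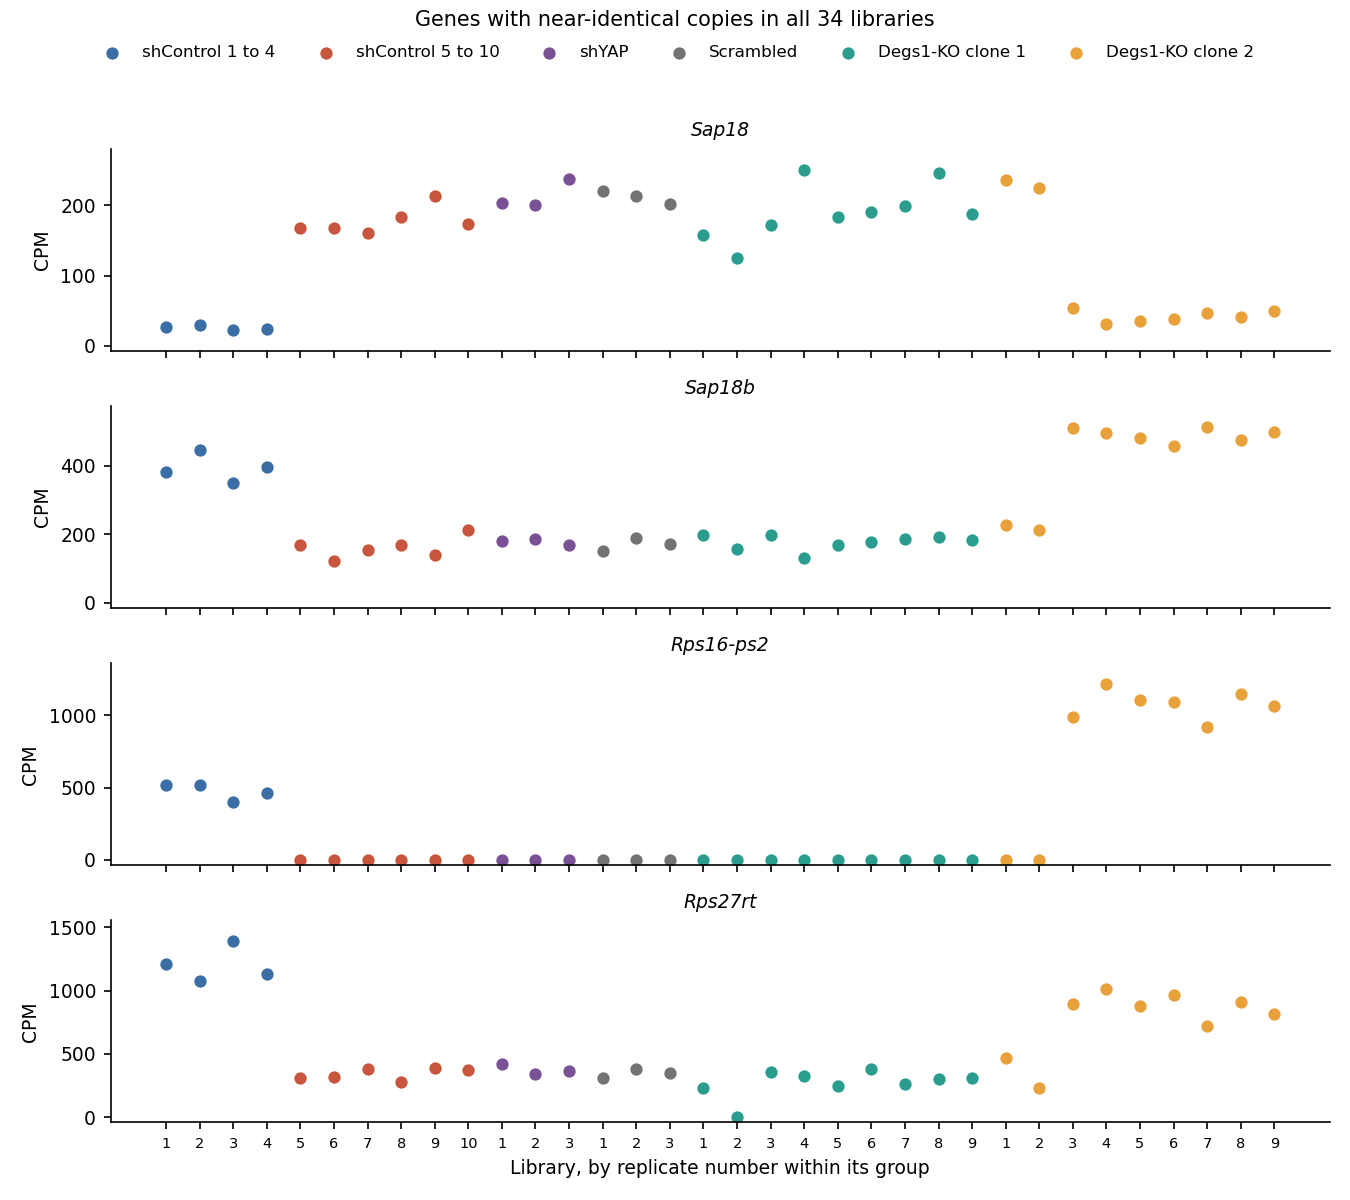
CPM of 4 genes with near-identical copies in each of the 34 libraries, by replicate number within each group, in the colours of the key. Sap18 is at 22.8 to 29.8 CPM in shControl 1 to 4 and at 30.3 to 53.9 CPM in clone 2 replicates 3 to 9, where Sap18b and Rps16-ps2 are high. Rps27rt is at 0 in clone 1 replicate 2.

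Across all genes, the share that passed went with the sequence a gene shares with others. Among the 3340 genes with no 31-base stretch in another gene, 4.22% were higher and 4.04% lower, and among the 231 genes with over 80% shared, 9.52% were higher and 16.9% lower. Leaving out the genes with at least 20% shared, 731 of 9732 genes passed (7.51%), 292 higher (3%) and 439 lower (4.51%). Of 125 tested processed pseudogenes 25 were lower (20%) and 7 higher (5.6%). Processed pseudogenes took 1.89, 2.02, 2.42 and 1.95% of counts in replicates 1 to 4 and 1.29 to 1.63% in the others. The exact permutation test gave p = 0.00476, the smallest that 210 assignments allow, and 0.0286 after adjustment over 6 measures. The pseudogene differences above came from the same libraries, so this p-value is not separate support for them. Short genes also passed more often, with 15.6% lower and 7.26% higher in the shortest decile of transcripts (104 to 1221 bases) against 2.52% and 1.58% in the longest. Among genes with under 5% shared, the shortest decile still had 11.6% lower and 6.99% higher. The part of this in the results above was not tested beyond the fits named.

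**Figure D5:**
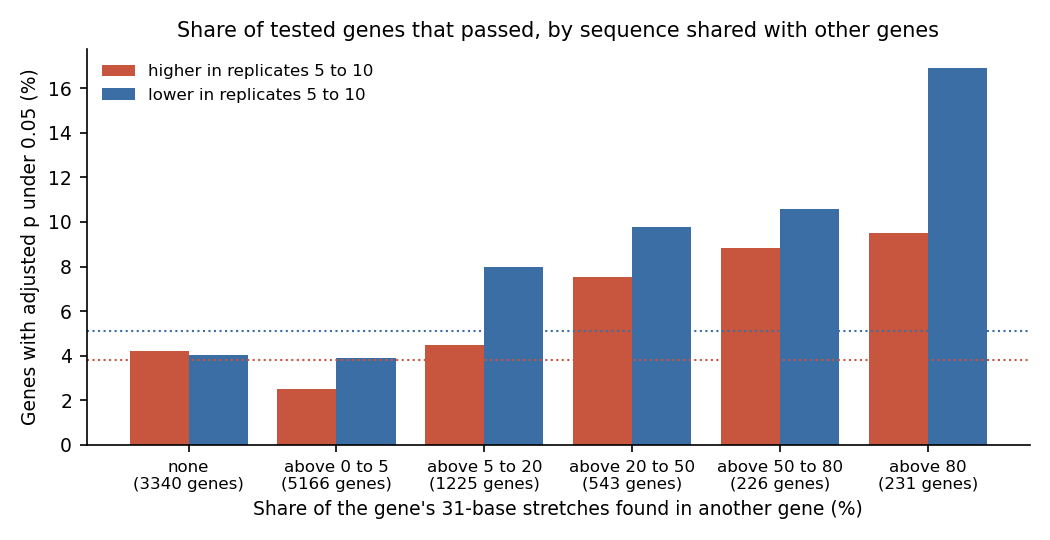
Percent of tested genes past an adjusted p of 0.05, by the share of a gene's 31-base stretches found in another gene. Red bars are genes higher and blue bars genes lower in the high-number libraries, with the number of genes under each class, and dotted lines mark 3.79% and 5.13% of all genes. The lower share goes from 4.04% in genes with none to 16.9% above 80%.

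Several large differences lay in genes with little or no shared sequence. Iho1 (chromosome 9, 108403611 to 108428484), a meiotic recombination gene, was at 55.8, 44.2, 33.5 and 33.98 CPM against 3.93, 7.42 and 11.2 CPM (-2.54 ± 0.24, adjusted p = 1.07e-06), with 2.23 to 15.2 CPM in the other 24 libraries. Adm2, a peptide hormone of the calcitonin family, was at 17.9, 27.8, 41.3 and 28.5 CPM against 3.90, 8.11 and 9.44 CPM (-1.84 ± 0.25, adjusted p = 8.12e-05). Ociad2 fell by 1.57 ± 0.18 (adjusted p = 9.76e-06). Haghl, a hydroxyacylglutathione hydrolase-like gene chosen after its values were seen, was at 10.7, 6.90, 16.2 and 9.24 CPM against 38.9, 46.0 and 56.8 CPM (2.22 ± 0.22, adjusted p = 1.52e-06). Gnas, also chosen after its values were seen, fell by 1.37 ± 0.16 (adjusted p = 9.76e-06). Like the copies, Gnas stood higher in clone 2 replicates 3 to 9, at 169 to 199 CPM, than in clone 2 replicates 1 and 2, at 82.9 to 97.0 CPM.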

How the data were processed

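RNA of 34 mouse organoid libraries was sequenced after poly(A) selection with a strand-marking kit, per the labels' protocols. The deposited table holds expected counts per gene, which the authors made with Salmon 1.3.0 and build mm10 (named in the submitters' processing notes). All of them are whole numbers. The annotation release and the strand setting are not given in the sources used here. The table held 54354 genes, of which 33388 had no count in the 10 libraries compared, and 1243 entries without a name took at most 0.0475% of counts. Positions came from GENCODE M21 (GRCm38), which held 51485 of the IDs.

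The test was the quasi-likelihood F-test of edgeR 4.0.16 (R 4.3.3) with robust dispersions and TMM factors, on genes that filterByExpr kept at a minimum count of 10 and a total of 15. Benjamini-Hochberg adjustment ran over every gene tested, with calls at 0.05. Levels are CPM with TMM factors over all 34 libraries, so levels and fitted fold changes differ slightly in scale. The members and lists (45 lists with 885 genes and 1 added list) were chosen with earlier results of these data known, as were the runs of replicates 5 to 7 and 8 to 10. A list was described in full where at least 5 members were tested, at least 4 passed in 1 direction, and their share was at least 1.5 times that over all genes. Named were 9 fixed genes, the 12 largest rises and 12 largest falls whose mean log2 CPM reached 3, and members of lists with the smallest adjusted p. Shared sequence is the percent of a gene's 31-base stretches, over its M21 transcripts on the sense strand, that stand in another gene. Shares of counts were compared with an exact permutation test. The steps were tested on simulated data. Alternatives were other size factors, no filter, DESeq2 1.42.0, 1 fit of all libraries, each run of high-number libraries alone, 3 runs as groups, leaving out each library, and, added after seeing the data, leaving out genes with shared sequence and summing copies. Results for a few items are not reported here.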

Additional observations from a re-analysis of the deposited data

Results flagged for a closer look

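In 7 of 220 groups of named genes, 1 library stood apart from the others of its stretch by Dixon's criterion, where chance gives about 1 in 20. Among the low-number libraries, Lgr5 was at 8.98 CPM in replicate 3, the shallowest, against 3.96 to 4.67 CPM in the others. Krt33a was at 10.9 CPM in replicate 1 against 0.60 to 2.23 CPM. Sox9 was at 73.9 CPM in replicate 4 against 52.8 to 54.5 CPM. Among the high-number libraries, Adm2 was at 3.90 CPM in replicate 6 against 7.57 to 9.44 CPM, and Cebpg was at 26.6 CPM in replicate 6 against 19.9 to 21.9 CPM. Hexa was at 25.4 CPM in replicate 7 against 13.8 to 18.0 CPM, and Sptlc1 was at 25.4 CPM in replicate 5 against 36.9 to 43.6 CPM.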

How the results depend on the processing

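The number of genes past the threshold was 960, with 957, 1209 and 1178 under other size factors, without the filter and with DESeq2. It was 1559 with all 34 libraries in 1 fit (733 higher), 969 and 1758 with replicates 5 to 7 or 8 to 10 alone (842 higher and 916 lower in the latter), and 1707 with 3 runs as groups (744 higher, 963 lower). At an adjusted p under 0.01 it was 397 (142 higher, 255 lower), and 320 differed by at least 1 on the log2 scale (187 higher, 133 lower). Leaving out 1 library gave 563 to 940 genes, 207 to 407 higher and 356 to 547 lower, with the lowest counts without replicate 2 or 4.

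Of 116 named genes, all kept their call with DESeq2 and with other size factors. In the fits that left out 1 library, 84 calls of single genes were lost, 2 were gained and none changed sign. With replicates 5 to 7 alone 16 genes lost the call, and with 8 to 10 alone 9 did and Ly6a, which never passed, changed sign (-0.04, adjusted p = 0.856). Summing copies turned the sign for Sap18 (-0.30) and for Sprr2a1 (0.54), by construction, since the partner copy moved the other way. No paired analysis was possible because the low- and high-number control libraries share no replicate number. The depth of 1747533 counts in replicate 3 limits genes under about 1 CPM, where 1 library holds few counts.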

Other observations

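Ceramide and sphingolipid enzymes, the pathway of Degs1, had 1 rise and no fall among 21 tested genes, where 3.79% of all genes rose and 5.13% fell. That rise was Sptlc1, a subunit of the enzyme that starts sphingolipid synthesis, at 21.4, 20.1, 20.96 and 21.8 CPM in replicates 1 to 4 and at 25.4, 39.6 and 43.6 CPM as lowest, median and highest of the others (0.85 ± 0.18, edgeR adjusted p = 0.00468). Among 16 tested targets of YAP and TEAD, 1 fell and none rose, the coagulation factor receptor F3 (-0.82 ± 0.19, adjusted p = 0.00848, and 0.0554 with replicates 5 to 7 alone), at 32.7 to 45.5 CPM against 17.7 to 32.0 CPM. No member passed among 23 NRF2 and glutathione genes, 13 xenobiotic genes, 16 genes of BMP and TGF-beta responses, 11 mesenchymal genes, 9 Notch genes or 9 EGFR ligands and receptors, where 8.93% of all genes passed, so that few or no calls in lists of this size are near that share. Metal handling had 2 rises among 12 genes, Tfrc and the metallothionein Mt4 of stratified epithelia, which was at 1277, 1125, 1553 and 1241 CPM against 1698, 1917 and 2306 CPM (0.60 ± 0.12, adjusted p = 0.00367). Among simple and basal keratins 3 of 12 rose, including Krt4 (0.93 ± 0.20, adjusted p = 0.00459) of oesophageal epithelium.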
